A study of Mus musculus with 26 samples.

Results

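The microRNA genes Mir127, Mir136, Mir431, Mir433, Mir434, Mir370, Mir379, Mir410, Mir541 and Mir1906-1 of the imprinted Dlk1-Dio3 domain were followed in mouse embryonic stem (ES) cells with and without ZFP57. They were chosen by symbol and make up 10 of the 24409 rows of the gene expression table and 10 of the 61 microRNA rows that RefSeq places between the start of Dlk1 and the end of Dio3 on chromosome 12. RNA-seq had 3 wild-type (WT) and 2 ZFP57 knockout (KO) libraries from male ES cells of the C57BL/6J strain. The embryos were collected as morulae at embryonic day 2.5 and kept in culture before the inner cell mass was isolated, so the lines derive from the blastocyst, and the cells were grown for at most 15 passages with LIF and the inhibitors PD0325901 and CHIR99021, at matched passage numbers for WT and KO. The KO was zygotic, so the embryos could still have received ZFP57 from the egg, and it disrupted the coding exons for the KRAB domain and the zinc fingers. The study worked with male WT and mutant lines, but the labels do not tie a library to a line, and p-values measure the spread between these libraries.

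ZFP57 is a KRAB zinc finger protein that binds the methylated hexanucleotide TGCCGC and keeps DNA methylation at imprinting control regions after fertilization. In the Dlk1-Dio3 domain, the control region between Dlk1 and Meg3 (IG-DMR) is methylated on the paternal chromosome, which expresses the protein-coding genes Dlk1, Rtl1 and Dio3. The maternal chromosome, whose control region is unmethylated, expresses the noncoding RNAs Meg3, Rian, Mirg and the antisense RNA of Rtl1, and these carry most of the domain's small nucleolar RNAs and microRNAs. A microRNA is cut by Drosha and Dgcr8 as a hairpin from a long precursor, exported by Xpo5, cut again by Dicer1 and loaded into an Argonaute protein, where its seed, bases 2 to 8, finds target RNAs. The domain holds one of the largest microRNA clusters of mammals, with high expression in embryo, placenta and brain.

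Mature sequences from RefSeq (GRCm38.p6) matched 10 of 10 genes and gave 19 mature microRNAs with 19 different seeds. One arm of each gene without a seed partner in the domain is shown first, in the order of the genes along the chromosome, with the seed in capitals. These arms were picked for the lack of a partner, so they do not show how alike the sequences of the cluster are.
miR-1906: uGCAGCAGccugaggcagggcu
miR-431-5p: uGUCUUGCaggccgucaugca
miR-433-3p: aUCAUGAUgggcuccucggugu
miR-127-3p: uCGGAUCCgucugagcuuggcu
miR-434-3p: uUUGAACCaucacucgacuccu
miR-136-5p: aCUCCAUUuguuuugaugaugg
miR-541-5p: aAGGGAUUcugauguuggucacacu

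The remaining members, Mir370, Mir379 and Mir410, share seeds with other microRNAs of the domain, and these are shown as pairs.
miR-370-5p: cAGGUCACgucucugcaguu
miR-1193-3p: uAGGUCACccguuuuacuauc
miR-379-5p: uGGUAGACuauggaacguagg
miR-1193-5p: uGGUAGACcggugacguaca
miR-379-3p: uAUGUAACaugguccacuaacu
miR-411-3p: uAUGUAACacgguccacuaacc
miR-410-5p: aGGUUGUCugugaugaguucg
miR-494-5p: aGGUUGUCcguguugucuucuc

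Of the sequences outside the domain, the seed of miR-410-3p (AUAUAAC) recurred in miR-344d-3p and miR-344e-3p, and miR-1906 has a second gene, Mir1906-2, on chromosome X. The other 8 genes had no seed partner outside the domain.

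All 10 genes lie on the plus strand of chromosome 12 (mm10), downstream of the IG-DMR. Mir1906-1 (chr12:109544541-109544620) lies in an exon of Meg3. Mir431 (chr12:109590447-109590537), Mir433 (chr12:109591715-109591838), Mir127 (chr12:109592846-109592915), Mir434 (chr12:109594506-109594599) and Mir136 (chr12:109595327-109595388) lie entirely opposite the coding part of Rtl1 (chr12:109590169-109595403, minus strand), so their RNA is complementary to the Rtl1 mRNA, which these microRNAs are known to cleave. Within this group, Mir433 lies inside the annotated noncoding RNA 6430411K18Rik and Mir127 shares 6 of its 70 bp with it. Mir370 (chr12:109618258-109618336) lies in an intron of Rian. Mir379 (chr12:109709060-109709125), at the head of the distal cluster, lies between annotated genes, Mir541 (chr12:109742409-109742498) in an intron of Mirg and Mir410 (chr12:109743715-109743795) in an exon of Mirg.

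The ZFP57 ChIP-seq list of peaks found in WT ES cells held 2 peaks between Dlk1 and Dio3. The upstream peak, chr12:109527075-109528603 (1529 bp), lay between Dlk1 and Meg3, as the IG-DMR does, and is called the IG-DMR peak here. The bounds of the IG-DMR itself were not compared with it. The upstream peak was also in the list named for hybrid lines. It ended 15.9 kb before Mir1906-1, 61.8 to 66.7 kb before the 5 genes opposite Rtl1, 89.7 kb before Mir370, 180 kb before Mir379, 214 kb before Mir541 and 215 kb before Mir410. It held 7 copies of TGCCGC, 5 on the plus strand and 2 as GCGGCA, and was the only one of the 85 peaks on chromosome 12 with 7 or more, against a median of 1. The median width of the 85 peaks was 301 bp, so this peak was wider than most, and the number of copies was not scaled for width. A copy was found in 80 of these 85 peaks, 94.1%, which were 180 to 1665 bp wide. At a matched width of 300 bp, it was found in 80.0% of the windows centred on these peaks and in 1.74% of all windows on chromosome 12. The 300 bp of the peak with most copies, chr12:109528220-109528519 (mm10, plus strand), are shown with the 5 copies in capitals because ZFP57 recognizes this motif.
IG-DMR peak: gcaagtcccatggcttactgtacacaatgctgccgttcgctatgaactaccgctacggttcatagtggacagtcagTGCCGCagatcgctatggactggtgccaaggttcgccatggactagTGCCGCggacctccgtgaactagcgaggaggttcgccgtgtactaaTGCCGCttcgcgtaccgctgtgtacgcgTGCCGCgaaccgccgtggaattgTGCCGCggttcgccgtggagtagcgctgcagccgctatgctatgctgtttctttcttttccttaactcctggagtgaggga

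The second peak, chr12:109820534-109821194 (661 bp), was not in the hybrid list and held 1 copy. It lay 76.7 kb after Mir410, 78.0 kb after Mir541 and 111 kb after Mir379, nearer to these genes than the IG-DMR peak. The peaks carry no score, so their heights could not be compared.

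Expression was deposited as FPKM, the fragments of a gene scaled for its length and for the size of the library. The libraries were made from total RNA depleted of ribosomal RNA and read in pairs of 150 bases. The value of a row of 62 to 124 bp, as for these genes, is thus likely to come mostly from pieces of longer RNA that cross the hairpin. The share of such pieces was not examined, and the mature microRNAs were not measured. The steps between low FPKM values show what a fragment was worth. On 1 kb it gave 0.0170 to 0.0197 FPKM, which corresponds to 50900000 to 58900000 fragments per library. Between 91.8 and 94.9% of the examined values of short genes were then whole numbers of fragments within 0.1. Values spread evenly would give 20%, but the step was chosen to make this share high. With lengths 1 bp shorter or longer, the best share of a library was 91.4 to 94.6%. On the 10 genes, a fragment was worth 0.137 to 0.317 FPKM.

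Zfp57, the targeted gene, was at 75.94, 72.34 and 70.55 FPKM in WT and at 19.00 and 21.62 FPKM in KO, so its RNA was lower in both KO libraries but not absent. The study found no ZFP57 protein in its mutant cells by western blot. The ES cell markers Pou5f1, Nanog, Sox2, Klf4, Esrrb, Zfp42, Tfcp2l1 and Tbx3 summed to 667 to 690 FPKM in WT and 759 to 829 FPKM in KO. Nanog was lower in both KO libraries (181.40 and 190.63 FPKM) than in any WT library (202.52, 193.92 and 203.97 FPKM), and Sox2 overlapped, so the higher sum came from other markers. The 14612 genes that averaged 0.1 FPKM or more were fitted with limma on the scale log2(FPKM + 0.1), and 41.1% were called at an adjusted p of 0.05 (18.8% higher in KO). A call with a log2 fold change of 1 or more in favour of KO was made for 2.93%. The median log2 fold change over all genes was -0.01.

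All 10 microRNA genes were higher in both KO libraries than in any WT library, as were 30.3% of all genes. Of the 10, 9 passed the test, all of them higher in KO by a log2 fold change of 1 or more, beside 2.93% of all genes. The median log2 fold change was 2.54, with a range from 1.99 for Mir370 to 4.96 for Mir410. When all 14612 genes were ranked by log2 fold change, 9 of the 10 were within the first 100. The gene outside these was Mir370 at rank 109. With pseudocounts of 0.01 and 1 FPKM, 6 and 9 of the 10 were within the first 100, and without WT replicate 1 the number was 7. With 0.1 FPKM, the gene that did not pass the test was Mir434.

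**Figure D1:**
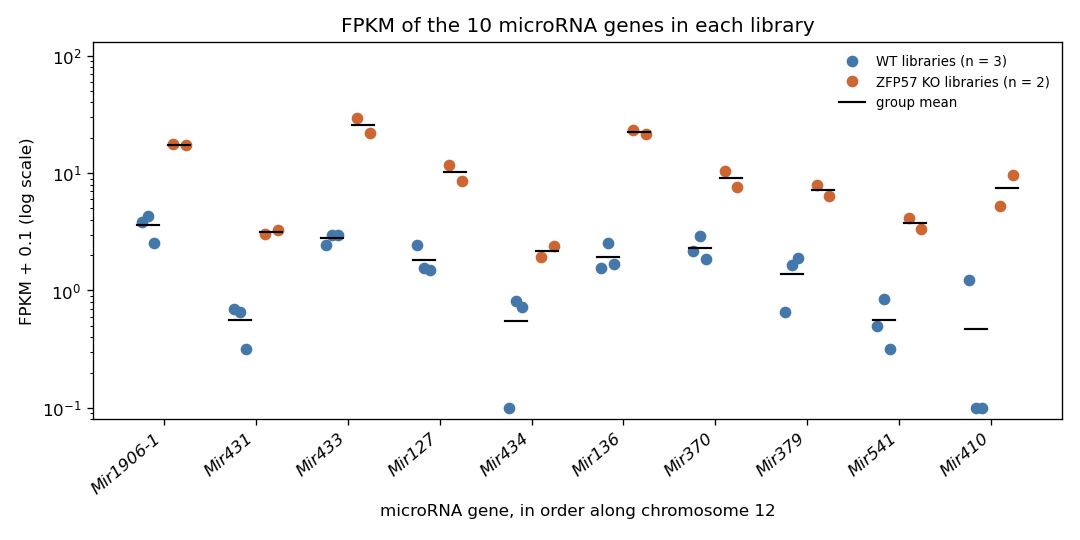
FPKM + 0.1 of the 10 microRNA genes on a log axis, in order along chromosome 12, with a point for each WT library (blue, n = 3) and each ZFP57 KO library (orange, n = 2) and a line at the mean of each group. In every gene both KO points lie above the WT points, and the points at the bottom are libraries at 0 FPKM (Mir434 in 1 WT library, Mir410 in 2).

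The 5 genes opposite Rtl1 included the pair with the highest levels in KO, Mir433 and Mir136. Mir433 was at 2.34, 2.88 and 2.85 FPKM in WT and at 29.44 and 21.77 FPKM in KO. The WT libraries lay close together and far below either KO library. Its level was 2.69 ± 0.303 FPKM (SD, n = 3) in WT and 25.6 ± 5.42 FPKM (SD, n = 2) in KO, with a log2 fold change of 3.19 (SE 0.15, limma adjusted p = 0.00029). Mir136, the last of the group, was at 1.46, 2.46 and 1.58 FPKM in WT and at 23.12 and 21.62 FPKM in KO. The KO libraries differed by less than the WT libraries did in proportion. The log2 fold change of 3.57 (SE 0.21, limma adjusted p = 0.00034) placed Mir136 ninth among all genes.

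Mir127, known for its role in placental development and as a microRNA that cleaves Rtl1 mRNA, was at 2.33, 1.46 and 1.40 FPKM in WT and at 11.74 and 8.54 FPKM in KO. The log2 fold change was 2.502 (SE 0.24, limma adjusted p = 0.00087). Mir431, the first gene of the group, was at 0.60, 0.56 and 0.22 FPKM in WT and at 2.94 and 3.18 FPKM in KO. Both groups were low compared with Mir127, with the groups apart by more than the spread within either. The log2 fold change was 2.58 (SE 0.35, limma adjusted p = 0.0024).

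Mir434 was the lowest of the 10 genes in KO. It was at 0, 0.72 and 0.63 FPKM in WT and at 1.83 and 2.31 FPKM in KO. The KO libraries were again above WT, but the WT library at 0 lay far from the others on the log scale, and the log2 fold change of 2.46 had an SE of 0.90 and a 95% interval from 0.29 to 4.64 (limma adjusted p = 0.071). A count of 0 in that library allows up to 0.578 FPKM. Without WT replicate 1, the log2 fold change was 1.48 with a limma adjusted p of 0.0057.

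Mir1906-1, the first gene of the domain's microRNAs, was at 3.74, 4.24 and 2.46 FPKM in WT and at 17.44 and 17.32 FPKM in KO. It had the highest mean of the 10 genes in WT, although its libraries overlapped those of Mir433 there. The log2 fold change was 2.32 (SE 0.21, limma adjusted p = 0.00075). The row of Mir1906-2, the copy on chromosome X, held the same value in every library, and in WT 1 and KO 2 the values did not correspond to whole fragments (16.5 and 76.5). Over both rows these were 33, 40 and 20 fragments in WT and 146 and 153 in KO, and which copy they came from cannot be told apart.

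Mir370, from the Rian intron, was at 2.06, 2.79 and 1.74 FPKM in WT and at 10.40 and 7.57 FPKM in KO. Its log2 fold change of 1.99 (SE 0.22, limma adjusted p = 0.0012) was the lowest of the 10 genes, although with a pseudocount of 1 FPKM Mir434 (1.12) and Mir431 (1.49) were below Mir370 (1.64), and without WT replicate 1 Mir434 was below it. Mir379, whose cluster is known for expression in neurons and for a role in the adaptation of newborn mice to fasting, was at 0.55, 1.54 and 1.79 FPKM in WT and at 7.82 and 6.31 FPKM in KO. The log2 fold change was 2.496 (SE 0.45, limma adjusted p = 0.0067), and without KO replicate 1 the adjusted p was 0.052.

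Mir541 and Mir410 both lie in Mirg, with Mir409, Mir412 and Mir369 between them. Mir541 was at 0.40, 0.75 and 0.22 FPKM in WT and at 4.03 and 3.22 FPKM in KO, with a log2 fold change of 2.85 (SE 0.39, limma adjusted p = 0.0026). Mir410 was at 1.12, 0 and 0 FPKM in WT and at 5.19 and 9.62 FPKM in KO. A single WT library held all of its WT fragments, and the ratio between the KO libraries was the largest of the 10 genes.

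The log2 fold change of Mir410, 4.96, was the highest of all 14612 genes tested, with an SE of 1.11, a 95% interval from 2.27 to 7.65 and a limma adjusted p of 0.0148. The libraries at 0 allow up to 0.629 FPKM in WT 2 and 0.728 FPKM in WT 3, so the size of the fold change depended on the pseudocount: it ranged from 2.66 to 7.19 over the alternatives, and with a pseudocount of 1 FPKM Mir410 was at rank 10, below Mir136 (3.06). The fitted fold of 31.1 was also larger than the ratio of the fragments, 19.9. The adjusted p was 0.052 without WT replicate 2, 0.061 without KO replicate 1 and 0.10 without KO replicate 2.

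**Figure D2:**
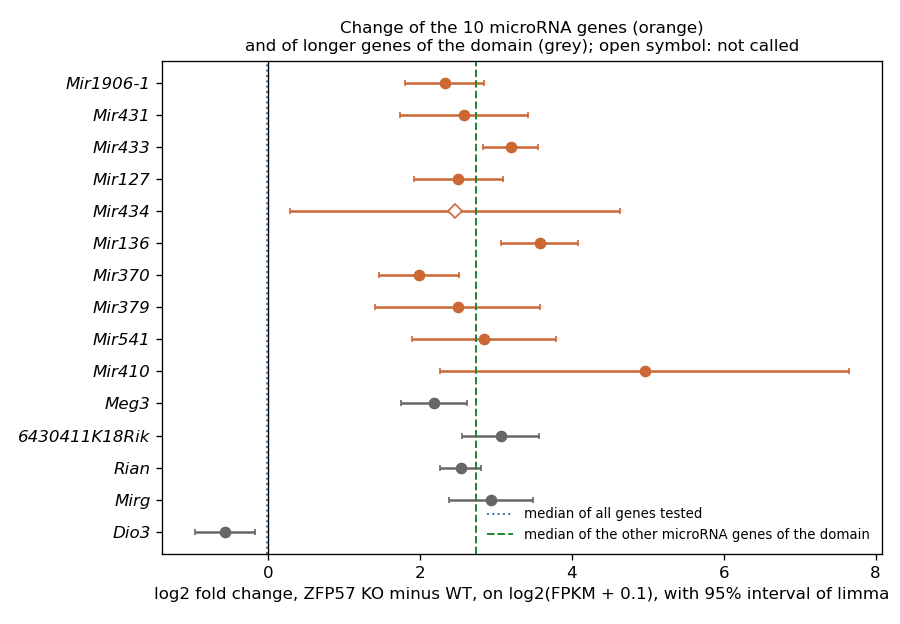
Log2 fold change (KO minus WT) on log2(FPKM + 0.1) with the 95% interval from limma, for the 10 microRNA genes (orange) and for Meg3, 6430411K18Rik, Rian, Mirg and Dio3 (grey). Filled circles passed the test and the open diamond (Mir434) did not. The intervals of Mir434 and Mir410, which have WT libraries at 0, are the widest, and Dio3 alone lies below 0.

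In KO, the order of the mean levels was Mir433, Mir136, Mir1906-1, Mir127, Mir370, Mir410, Mir379, Mir541, Mir431 and Mir434, from 25.6 ± 5.42 to 2.07 ± 0.339 FPKM (SD, n = 2). The KO libraries of Mir433 and Mir136 overlapped, as did those of neighbours from Mir127 to Mir379, and the other neighbours did not. In WT, the means ran from 3.48 ± 0.918 FPKM (SD, n = 3) for Mir1906-1 to 0.373 ± 0.647 FPKM for Mir410, and every gene overlapped the next in order. Levels of different genes were compared on the FPKM scale, which is per length.

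Few fragments lay behind these values in WT. The 10 genes together held 67.5, 86.0 and 56.0 fragments in WT and 516 and 475.5 in KO, and a gene in a WT library held between 0 and 21. Mir433 rested on 16, 21 and 18 fragments in WT and 191 and 149 in KO, a depth-scaled ratio of 9.48 (95% interval 7.12 to 12.9, counting error only). For Mir136, 5, 9 and 5 fragments stood against 75 and 74, a ratio of 12.03 (7.44 to 20.5). At the other end, Mir431 had 3, 3 and 1 against 14 and 16, a ratio of 6.58 (2.83 to 17.7), and Mir410 had 5, 0 and 0 against 22 and 43, a ratio of 19.9 (8.12 to 63.5). The lower limit of all 10 intervals was above 1, the lowest being 1.88 for Mir434. These ratios use no pseudocount, and that of Mir434 was 4.60 (1.88 to 12.8) from 7 fragments in WT and 21 in KO.

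**Figure D3:**
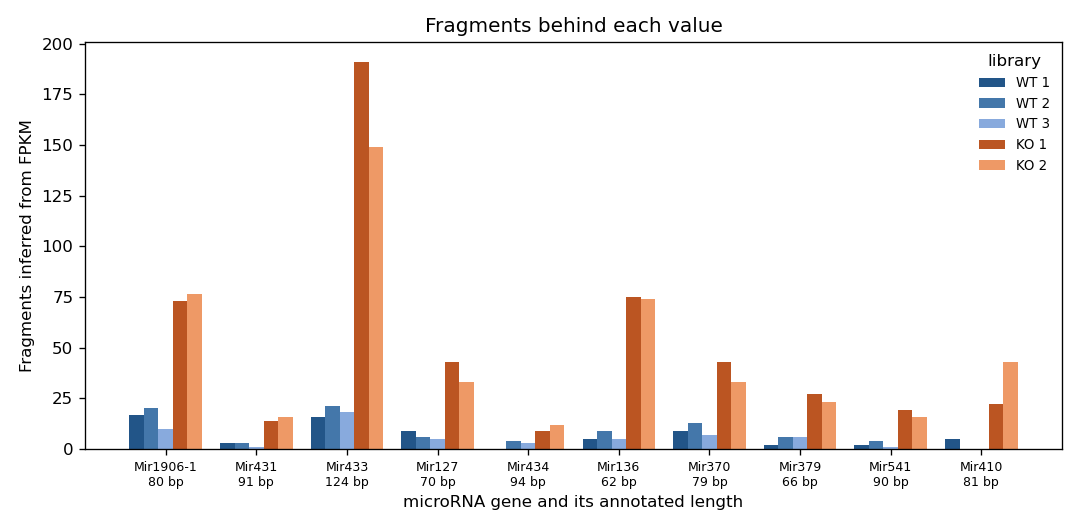
Fragments behind each value, inferred from the steps between FPKM values, for the 10 microRNA genes with their annotated length in bp, with a bar for each library (WT in blue, KO in orange). WT bars reach at most 21 fragments and KO bars 191, and Mir434, Mir431 and Mir541 have the lowest KO bars.

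The long RNAs of the maternal chromosome moved in the same direction. Meg3 was at 3.52, 2.91 and 2.34 FPKM in WT and at 15.01 and 12.07 FPKM in KO, a log2 fold change of 2.18 (limma adjusted p = 0.00058). Rian, the most abundant of them, was at 22.76, 21.09 and 18.22 FPKM in WT and at 129.93 and 110.33 FPKM in KO (log2 fold change 2.53, limma adjusted p = 0.00027). Mirg was at 2.44, 2.12 and 1.35 FPKM in WT and at 15.99 and 14.74 FPKM in KO (log2 fold change 2.94, limma adjusted p = 0.00056). Each had KO libraries several times above the highest WT library. 6430411K18Rik, the annotated RNA opposite Rtl1, was at 2.74, 2.66 and 1.73 FPKM in WT and at 22.57 and 18.06 FPKM in KO (log2 fold change 3.06, limma adjusted p = 0.00042).

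The protein-coding genes of the paternal chromosome were below 1 FPKM. Dlk1, a transmembrane ligand related to Notch ligands, was at 0.03, 0.03 and 0.04 FPKM in WT and at 0.01 and 0.03 FPKM in KO, under the filter of the test. Rtl1, derived from a retrotransposon, was at 0.01, 0.01 and 0 FPKM in WT and at 0.18 and 0.10 FPKM in KO, also under the filter. Dio3, which inactivates thyroid hormone, was the only gene of the domain called lower, from 0.62, 0.61 and 0.52 FPKM in WT to 0.39 and 0.33 FPKM in KO (log2 fold change -0.57, limma adjusted p = 0.033). The call was lost without any 1 of the WT libraries (limma adjusted p from 0.054 to 0.097), with quantile normalization (0.10), without the filter (0.052) and with a replicate block (0.11). The log2 fold change was -0.67 without KO replicate 1 and -0.48 without KO replicate 2.

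The ratio of a microRNA row to a long RNA of its part of the domain was followed in each library as a log2 difference. Mir379 was set against Mirg, although it lies upstream of Mirg with other microRNA genes in between. For Mir1906-1 against Meg3, Mir433 against 6430411K18Rik and Mir541 against Mirg, the KO mean differed from the WT mean by 0.14, 0.13 and -0.09, with overlapping libraries. Mir127 fell by 0.56 and Mir136 rose by 0.51 relative to 6430411K18Rik, and Mir370 fell by 0.54 relative to Rian, each without overlap between WT and KO libraries. For Mir431, Mir434, Mir379 and Mir410 the differences were -0.48, -0.60, -0.44 and 2.02 and the libraries overlapped. These ratios are given as values without a test. With 3 WT and 2 KO libraries, full separation in a given direction has a chance of 0.1 for a row without any difference. Ratios of genes with few WT fragments, Mir127, Mir136 and Mir541 among them, are imprecise.

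Strand was examined in rows that lie opposite one another. Mir3071, on the minus strand, covers all 62 bp of Mir136, and was at 0 FPKM in all WT libraries and at 0.24 and 0 FPKM in KO, where Mir136 was above 21. Mir3544, opposite Mir337, was at 0 in all 5 libraries, and Mir299b, opposite Mir299a, was at 0.37, 0 and 0 FPKM in WT and at 0.39 and 0 FPKM in KO. In KO, the rows on the minus strand thus held few or no fragments, and those opposite them held more, while in WT the rows of Mir337 and Mir299a were themselves at or below 0.58 FPKM.

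Of the other 51 microRNA rows of the domain, 48 passed the filter and 39 of these were called, all higher in KO, beside 18.8% of all genes. Mir376b, Mir381 and Mir154 were at 0 in all WT libraries and passed the filter only through KO, so they could differ in no other direction. Of the 45 rows without them, 36 were called, with a median log2 fold change of 2.73, and both KO libraries were above all WT libraries for 41. All 10 microRNA genes followed here had a WT mean above the filter. The most abundant was Mir432, which lies between Mir434 and Mir136, at 7.01, 4.75 and 3.67 FPKM in WT and at 54.27 and 49.75 FPKM in KO (log2 fold change 3.36, limma adjusted p = 0.00048). Next by mean FPKM over the 5 libraries, an order that favours rows with a large rise, were Mir668, Mir496a, Mir382, Mir377 and Mir3070a, with log2 fold changes of 2.83, 2.75, 2.74, 2.33 and 3.50, all called. Mir3070a was low in WT, at 1.25 ± 0.831 FPKM (SD, n = 3). A row that did not follow was Mir673, named after its values were seen, which lies between Meg3 and the genes opposite the coding part of Rtl1. It was at 2.19, 1.49 and 0.65 FPKM in WT and at 1.47 and 0.60 FPKM in KO (log2 fold change -0.42, limma adjusted p = 0.57). Its KO libraries overlapped the WT libraries and its interval reached from -1.71 to 0.88.

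**Figure D4:**
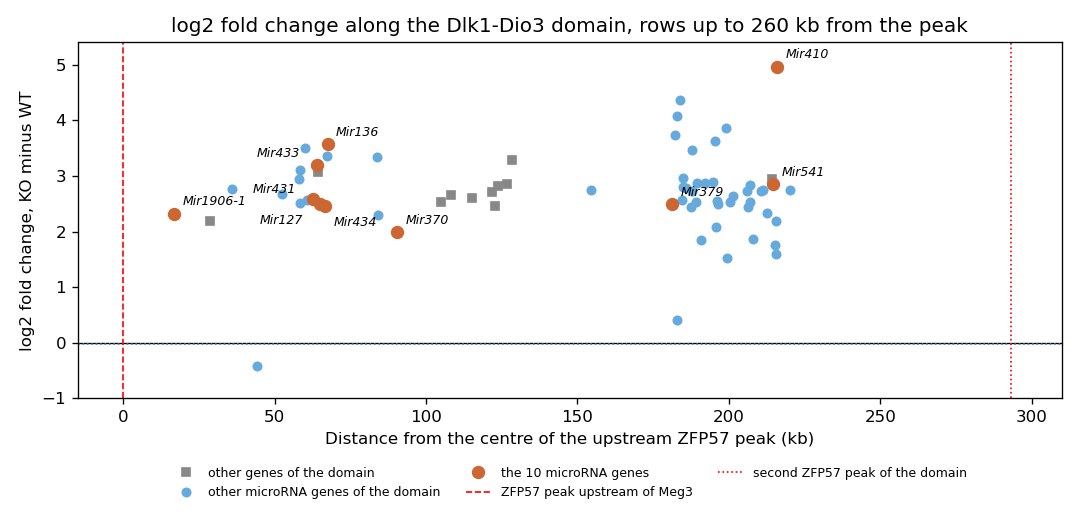
Log2 fold change (KO minus WT) of the tested rows up to 260 kb from the IG-DMR peak against the distance of each row from the centre of that peak in kb, with the 10 microRNA genes in orange, the other microRNA genes in blue and the other genes in grey. The rows lie mostly between 1.5 and 4, from Mir1906-1 near the peak to Mir410 more than 200 kb away, and the points near or below 0 are Mir673 and Mir299b.

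Summed by place along the chromosome, the fragments of the microRNA rows opposite the coding part of Rtl1 (6 rows on the plus strand, 5 of them the genes followed here) rose from 1.04 ± 0.118 per 1000000 fragments (SD, n = 3) in WT to 9.65 ± 1.09 (SD, n = 2) in KO, a ratio of 9.29. Over all pairs of a KO and a WT library, this ratio lay between 7.90 and 11.5. Most of the KO fragments came from Mir432 (419), Mir433 (340) and Mir136 (149), and the ratios of the other rows, Mir434, Mir127 and Mir431, were 4.60, 5.83 and 6.58, close to those of the other places. The 3 rows inside Rian, with Mir370, gave a ratio of 5.05 (3.56 to 7.01 over the pairs), a range below that of the Rtl1 group. The 39 rows from Mir882 to Mir3072, with Mir379, Mir541 and Mir410, gave 6.60 (5.53 to 8.88), the 2 rows inside Meg3 gave 5.70 (4.17 to 8.82), and the 7 rows between Meg3 and the coding part of Rtl1, none of them followed here, gave 5.90 (4.77 to 10.9). These ranges overlapped that of the Rtl1 group. Within the same pair of libraries, the rows inside Rian, inside Meg3 and from Mir882 to Mir3072 were always below the Rtl1 group. The 7 rows between Meg3 and the coding part of Rtl1 were above it for KO 2 and WT 3. The differences between places were not tested.

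MicroRNA rows outside the domain served as a background for such short genes. Of 638 tested rows, 12.9% were called, 40 higher and 42 lower in KO, with a median log2 fold change of 0.01. One of those called higher is Mir1906-2, which shares its values with Mir1906-1 and is not independent of it. With only microRNA rows in the fit, 9 of the 638 were called. The ES cell cluster Mir290 to Mir295, which is the most abundant microRNA cluster of ES cells, had 1 called row of 8, Mir291b, at 113.52, 136.89 and 121.37 FPKM in WT and at 156.75 and 186.64 FPKM in KO (log2 fold change 0.47, limma adjusted p = 0.013, and 0.081 without KO replicate 2). None of the 5 rows of the Mir302-Mir367 cluster, all below 1 FPKM, was called.

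Rows of other imprinted loci changed less or were not called. Mir675, processed from H19 RNA, was at 0.43, 0.20 and 0.23 FPKM in WT and at 0.68 and 0.86 FPKM in KO (log2 fold change 1.21, limma adjusted p = 0.017). Mir298 of the Gnas and Nespas locus was at 1.33, 2.69 and 2.64 FPKM in WT and at 4.19 and 4.20 FPKM in KO (log2 fold change 0.95, limma adjusted p = 0.043). Both lay above WT in both KO libraries, but without KO replicate 2 the adjusted p was 0.10 for Mir675 and 0.16 for Mir298, and neither was called when only microRNA rows were fitted (0.58 and 0.37). Leaving out WT replicate 2, WT replicate 3 or KO replicate 1 also ended both calls. Mir296, beside Mir298, and Mir335 of Mest had log2 fold changes of 0.54 and 0.68 (limma adjusted p = 0.22 and 0.14), and Mir483 of Igf2 and Mir184 were at 0 in all libraries.

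On either side of the domain, 8 genes within 500 kb were tested and 2 were called, 25% beside 41.1% of all genes. These were Hsp90aa1 and Ppp2r5c, with log2 fold changes of 0.21 and 0.17. Begain, beside Dlk1, had a log2 fold change of 0.15 (limma adjusted p = 0.72). Without any 1 of WT replicates 1 and 2 and KO replicates 1 and 2, neither was called. On the rest of chromosome 12, the median log2 fold change of 503 genes was -0.01.

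Of the genes of microRNA production and function, 22 of 23 were tested, 5 were called higher and 6 lower, a share of 50.0% beside 41.1% of all genes. Drosha, which cuts the precursor, its partner Dgcr8 and the exporter Xpo5 did not pass the test, with log2 fold changes of 0.02, 0.09 and 0.04. Dicer1 was at 14.33, 14.37 and 15.23 FPKM in WT and at 12.99 and 12.22 FPKM in KO (log2 fold change -0.21, limma adjusted p = 0.019), and the adjusted p was 0.092 without KO replicate 2 and 0.062 without WT replicate 3. Lin28a, an RNA-binding protein that blocks the maturation of let-7, had the highest rise, from 18.46, 20.52 and 18.07 FPKM in WT to 36.81 and 33.67 FPKM in KO (log2 fold change 0.89, limma adjusted p = 0.00057). Ran, Ddx17, Hnrnpa2b1 and Khsrp, also called higher, rose by 0.14 to 0.21 on the log2 scale. The calls of Ran, which drives export by Xpo5, and Ddx17, a cofactor of Drosha, were lost with median centring (adjusted p = 0.087 and 0.12) and without any 1 library, except that Ddx17 kept its call without WT replicate 2. Prkra, Lin28b, Tnrc6c, Zcchc11 and Ddx5 fell by 0.55, 0.44, 0.39, 0.30 and 0.30. Without KO replicate 2, 7 of the 22 were called, and Lin28b was then at an adjusted p of 0.054.

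Markers of other cell types were low in all libraries, but some were higher in KO. The 6 markers of primitive endoderm summed to 0.75 to 0.91 FPKM in WT and 1.07 to 1.39 FPKM in KO. Sox7 alone carried this rise (0.09, 0.15 and 0.11 against 0.90 and 0.48 FPKM), while Gata4 was lower in both KO libraries than in WT and Gata6, Sox17, Pdgfra and Dab2 were at or below 0.23 FPKM in all libraries. Those of trophoblast summed to 1.78 to 2.26 FPKM in WT and 4.69 to 5.62 FPKM in KO. Eomes, Krt8, Cdx2 and Gata3 were above all WT libraries in both KO libraries, Krt18 was not, and Elf5 was at 0 in both. The 6 markers of early differentiation summed to 0.85 to 1.25 FPKM in WT and 2.17 to 2.56 FPKM in KO. Of these, T, Sox1, Fgf5 and Otx2 were above all WT libraries in both KO libraries, while Mixl1 and Pax6 overlapped WT. Those of fibroblasts or feeder cells summed to 0.48 to 0.57 FPKM over all libraries, with Col3a1 at 0 in each. In bulk RNA, fewer cells of a kind and less RNA per cell cannot be told apart, and the part of such cells in the values of the microRNA genes was not tested.

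The genes outside the list whose log2 levels ran most like the mean of the 10 microRNA genes over the 5 libraries were Dtx1, Fhl1, AK010878, Nudt5 and Rbsn, with Pearson's r from 0.9995 to 0.9998. With 5 libraries in 2 groups, 285 of 10654 candidates had an r of at least 0.99, and the rank among them has little meaning. For the 52 candidates within the domain the median r was 0.956.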

How the data were processed

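RNA-seq (3 WT and 2 ZFP57 KO libraries) and lists of ZFP57 peaks were used. The authors deposited gene expression as FPKM in mm10, rounded to 2 decimals. The sources name FastQC 0.11.5, Trim Galore 0.2.7, BWA 0.6.2, Picard, MACS2 2.1.0 and STAR 2.5.2; the counting tool and its annotation are not given in the sources used here. The deposited peaks are start and end positions (unit: other, without a score), found in at least 2 of 3 WT replicates.

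Of 24409 rows, the symbol gave a place in RefSeq (GRCm38.p6) for 23165 and an older name for 1096; 16 had several matches and 132 none. limma 3.58.1 (R 4.3.3, eBayes with trend) was run on log2(FPKM + 0.1) of the genes that averaged 0.1 FPKM or more, with Benjamini-Hochberg adjustment over all of them and a threshold of 0.05. The pseudocount makes a log2 fold change understate the change of low genes, while WT libraries at 0 can raise it above the ratio of the means. Fragments were inferred from FPKM steps of genes up to 200 bp; their 95% intervals (exact Poisson for a library, exact conditional for a ratio) and the limit of 3 counts for a 0 cover counting error only. Python 3.11.15, pandas 2.3.3 and scipy 1.17.1 were used.

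The members and gene lists were chosen with earlier results of these data known. All members, the main genes of the domain, its 6 most abundant other microRNAs, microRNAs of other imprinted loci and of the ES cell clusters, and the 5 most similar genes were named by rule. Library numbers were not treated as pairs: the deviations of same-numbered libraries correlated at -0.07 and -0.04. Alternatives were other pseudocounts, filters, scalings and variance models, a replicate block and each library left out. The ChIP-seq reads were not analysed here.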

Additional observations from a re-analysis of the deposited data

How the results depend on the processing

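Over 15 alternatives for each of the 10 microRNA genes (150 values), all log2 fold changes were above 0, and 140 kept their side of the threshold. Mir434 passed the test with a pseudocount of 1 FPKM (log2 fold change 1.12, limma adjusted p = 0.012) as well as without WT replicate 1, Mir431 missed it when only microRNA rows were fitted (adjusted p = 0.058), and Mir410 missed it under robust eBayes (adjusted p = 0.051). Between 7 and 10 of the 10 genes were called when a library was left out. The median log2 fold change ranged from 1.94 with a pseudocount of 1 FPKM to 2.98 with 0.01 FPKM. With the replicate block, Mir434 passed (adjusted p = 0.045), Mir410 missed (0.051), 9 of the 10 genes were called, 2980 of all genes in place of 6002, 4 genes of microRNA production in place of 11 and 0 flanking genes in place of 2. Without the variance trend, 7 production genes and 1 flanking gene were called; leaving out a library gave 7 to 10 production genes and 0 to 2 flanking genes. With only microRNA rows fitted, 9 microRNA rows outside the domain were called in place of 82; the cause was not tested. A log2 fold change of at least 1 left 1172 of all genes. Median centring and quantile normalization moved the median of all genes by -0.03 and 0.02. In the hybrid list the nearest peak to Mir379, Mir541 and Mir410 was the one at the IG-DMR, 180457, 213806 and 215112 bp away. WT values of the 10 genes rested on at most 21 fragments each, which limits the precision of every fold change.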

Other observations

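The small nucleolar RNA rows of the domain, which lie in introns of Rian like Mir370, were also higher in KO. AF357359 was at 102.06, 101.86 and 107.41 FPKM in WT and at 652.93 and 493.31 FPKM in KO (log2 fold change 2.45, limma adjusted p = 0.00029). AF357425, AF357426, DQ267100, DQ267101, AF357355 and DQ267102 had log2 fold changes of 2.66, 2.60, 2.72, 2.81, 2.85 and 3.29, all called, but the adjusted p of DQ267101 was 0.079 without KO replicate 1, 0.074 without KO replicate 2 and 0.0504 without WT replicate 2. They were named after their values were seen. In each of these rows both KO libraries lay above all WT libraries.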
